A study of Mus musculus with 48 samples.

Results

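Immature neuron and outgrowth genes are genes that young neurons use while they migrate and extend an axon. The group described here holds 10 genes of the 48526 in the deposited count table, chosen by name: Dcx, Sox4, Sox11, Tubb2b, Marcksl1, Dpysl3, Dpysl5, Gap43, Stmn1 and Stmn2. Each symbol was matched to its Ensembl identifier through GENCODE. The rule that finds the rows uses no measured value, but the genes were picked with earlier results of these data known, so counts among them are descriptions. All 10 passed the filter on low counts in every fit.

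The study followed translation in the ageing cortex of 12 male wild-type C57BL/6JRj mice that received no treatment, with 4 mice at 3 weeks (3w), 4 at 5 months (5m) and 4 at 18 months (18m). For the middle age, titles read 6 months where the protocol and the methods read 5, and 5 months is used here. From each mouse, total homogenate (TH) and synaptosomes (SYN), which are pinched-off synaptic terminals purified on a gradient, were each split into an input and a pellet that was spun through a sucrose cushion (SC) to collect ribosomes and the RNA bound to them. The 4 libraries per mouse make 48 in all, with 4 in each of 12 groups. The RNA is that of all cells of the cortex and of whatever sediments with SYN, so fewer cells of a type and less RNA per cell cannot be told apart in these values.

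Totals per library ranged from 1780267 to 18590040 counts. At each age the SYN inputs were the shallowest, with medians of 3164657 at 3w, 3212304 at 5m and 5790816 at 18m. The lowest count of any of the 10 genes was 14 reads for Dcx in an 18m SYN input. Pellet depth differed with age, with medians of 4448523, 8643431 and 12328632 in TH SC and 5956008, 10290948 and 10787505 in SYN SC. The deepest 3w SYN SC library held 6132944 counts and the shallowest 5m one 8328535, so age and depth coincide there. Levels are given as CPM, counts per library total in the usual scaling. Between genes they are compared as CPM per kilobase of exon (RPKM). Differences are log2 fold changes from edgeR's quasi-likelihood test with TMM scaling, and a gene was called at a Benjamini-Hochberg adjusted p under 0.05 over all genes tested. Each comparison carries the share of all tested genes called the same way, as the background for the count among the 10.

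Neurons that have just left the cell cycle switch on SoxC transcription factors, then build a growth cone whose microtubules and actin are rearranged continually as the axon advances. Sox4 and Sox11 are such factors, active in the step from progenitor to neuron and also in other immature cells, including those of the oligodendrocyte lineage. Dcx (doublecortin) binds and stabilises microtubules in migrating neurons and marks neuroblasts in histology. Tubb2b is a beta-tubulin that is abundant in the developing cortex. Stmn1 and Stmn2 encode stathmins, which bind tubulin dimers and favour disassembly, Stmn2 being largely neuronal. Dpysl3 and Dpysl5 encode collapsin response mediator proteins, which relay guidance signals to the cytoskeleton. Gap43 is a growth cone membrane protein that in adult neurons is also found at presynaptic terminals, and Marcksl1 is a relative of Marcks that binds actin and membrane lipids.

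In GRCm38, Dcx is at chrX:143855842-143933311 on the minus strand, Sox4 at chr13:28948919-28953713 (minus), Tubb2b at chr13:34126748-34130466 (minus) and Sox11 at chr12:27334264-27342574 (minus). Marcksl1 is at chr4:129513581-129515985 (plus), Stmn1 at chr4:134468320-134473843 (plus), Dpysl5 at chr5:30711564-30799375 (plus), Gap43 at chr16:42248442-42340651 (minus) and Stmn2 at chr3:8509360-8561606 (plus). Joined exon lengths ran from 1523 bases for Gap43 to 12647 for Dcx. Counting is stated to ignore strand for other libraries of the study, and 2616 exonic bases of Sox4 overlap Gm26735 on the opposite strand, so reads of that pair may not be told apart and the Sox4 values are uncertain to that extent. A further 66 bases of Stmn1 are shared with Gm23634 on the same strand.

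RefSeq promoter windows (GRCm38.p6, from 250 bases before to 50 after a start) were at hand for 5 of the 10 genes, namely Sox4, Sox11, Dcx, Marcksl1 and Dpysl5. Printed here, 5′ to 3′ on the gene's own strand, are the bases before the start of Marcksl1, Sox4 and Sox11. Marcksl1 had the largest change with age of the 10. The related Sox4 and Sox11 were called in TH over different steps of age, a difference that was not itself tested. Capitals mark E-boxes (CANNTG, read by basic helix-loop-helix factors) and GC boxes (GGGCGG or its reverse complement, read by Sp factors). The windows are chr4:129513331-129513580 (plus), chr13:28953714-28953949 (minus) and chr12:27342719-27342968 (minus).
Marcksl1: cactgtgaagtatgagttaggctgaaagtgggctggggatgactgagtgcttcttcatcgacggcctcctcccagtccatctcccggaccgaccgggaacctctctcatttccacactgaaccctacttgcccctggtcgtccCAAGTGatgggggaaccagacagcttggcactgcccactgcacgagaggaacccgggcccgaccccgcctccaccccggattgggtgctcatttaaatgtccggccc
Sox4: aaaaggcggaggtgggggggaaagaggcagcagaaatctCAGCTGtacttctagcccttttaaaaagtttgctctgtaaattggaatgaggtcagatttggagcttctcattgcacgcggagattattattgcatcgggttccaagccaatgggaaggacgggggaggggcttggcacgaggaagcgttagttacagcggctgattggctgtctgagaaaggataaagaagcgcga
Sox11: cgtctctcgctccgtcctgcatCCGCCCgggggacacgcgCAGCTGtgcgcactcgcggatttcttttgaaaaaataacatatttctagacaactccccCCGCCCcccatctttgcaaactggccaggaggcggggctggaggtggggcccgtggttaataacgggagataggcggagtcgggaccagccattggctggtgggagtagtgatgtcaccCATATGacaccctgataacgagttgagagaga

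Over the full windows of 300 bases, both strands searched, an E-box was found in 4 of these 5 genes, all but Dcx, and in 72.3% of all 32817 promoter windows. A GC box was found in 3 of the 5 (Marcksl1, Sox11 and Dpysl5) and in 35.6% of all windows. The SoxC core ACAAAG was found in Dpysl5 and in 1 of the windows of Dcx, against 18.7% of all windows, and the TATA box TATAAA in Dcx alone of the 5, against 13.6%. Sox4 and Sox11 both held E-boxes, and of the pair Sox11 held GC boxes. Those of Marcksl1 lie after its start and so outside the printed bases. A match is a description of letters and not of binding.

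Per length, Dcx stood lowest of the 10 genes and Stmn1 or Tubb2b highest. Group means of Stmn1 ran from 110 to 340 RPKM and those of Tubb2b from 45.9 to 195 RPKM. Gap43 followed at 44.3 to 97.3 RPKM, Marcksl1 at 13.2 to 97.9 RPKM and Stmn2 at 17.9 to 43.3 RPKM. Sox4, Dpysl3, Dpysl5 and Sox11 had means between 2.44 and 15.4 RPKM, and Dcx between 0.361 and 3.98 RPKM, last in all 12 groups. All 10 genes were detected in all 48 libraries. The position of Marcksl1 depended on age: it ranked 2 of the 10 in TH input at 3w and 5 at 5m.

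**Figure D1:**
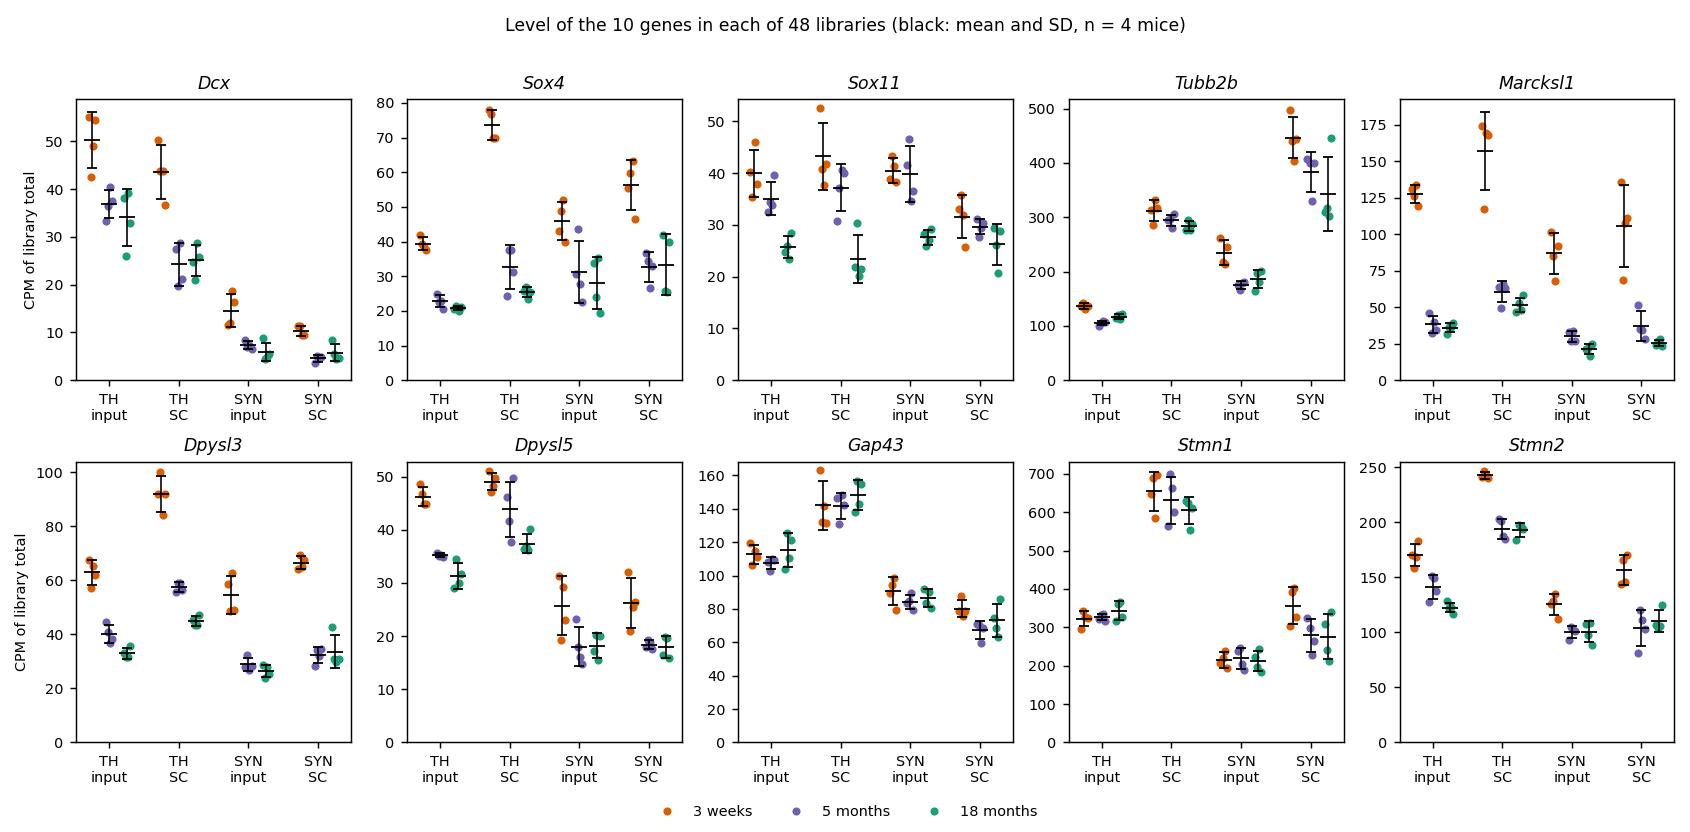
Level of each of the 10 genes in the 48 libraries, in CPM of the library total (linear axes from 0), by fraction on the horizontal axis and age by colour; dots are single libraries and black bars the mean and SD of 4 mice. Marcksl1, Sox4, Dcx and Dpysl3 have their highest mean at 3w in each fraction, whereas Gap43 and Stmn1 overlap between 3w and 5m in all fractions except Gap43 in SYN SC.

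The first comparison asks how the genes changed within each fraction as the cortex matured from 3w to 5m. Marcksl1, Dcx and Dpysl3 fell in all 4 fractions and Sox4 in 3 of them, by 1.41-fold to 3.45-fold. Stmn2 fell in 3 fractions and Tubb2b in both inputs. Dpysl5 was called in TH input (-0.44) and not in SYN input (-0.50), SYN SC (-0.46) or TH SC (-0.13). Sox11, Gap43 and Stmn1 were not called in any fraction, and none of the 10 rose. In number, 7 of 10 genes fell in TH input, against 7.05% of all genes tested called lower, 5 of 10 in TH SC (8.46%), 4 of 10 in SYN input (1.94%) and 5 of 10 in SYN SC (4.02%). The median log2 change of the 10 was -0.43, -0.25, -0.46 and -0.50 in these fractions, where the median of all genes lay between -0.01 and 0.01.

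Marcksl1 carried the largest change. In TH input its levels were 131, 126, 134 and 120 CPM at 3w and 46, 32.6, 39.6 and 34.6 CPM at 5m, listed in the order of the mice, as all such values below. In SYN SC they were 136, 68.3, 108 and 111 CPM at 3w and 51.8, 35.1, 34.2 and 28 CPM at 5m. All 3w libraries stood above all 5m libraries in both fractions, though in SYN SC mouse 188 was low for its age. The log2 change was -1.79 ± 0.09 (SE) in TH input (3.45-fold lower, adjusted p = 1.08e-09) and -1.46 ± 0.21 in SYN SC (2.74-fold lower, adjusted p = 0.000893). TH SC and SYN input gave -1.35 ± 0.12 (adjusted p = 2.12e-06) and -1.53 ± 0.15 (adjusted p = 9.3e-06). Of the 10 genes, it lost the largest share of its RNA in each of the 4 fractions.

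Sox4 fell in both TH fractions and in SYN SC. Its TH SC levels were 78, 76.8, 69.8 and 70 CPM at 3w and 24.4, 37.5, 37.4 and 31.1 CPM at 5m, without overlap. In TH input they were 41.9, 39.4, 38.5 and 37.6 and 25, 22.6, 22.8 and 20.7 CPM, again apart. The log2 changes were -1.16 ± 0.12 (adjusted p = 9.17e-06) and -0.84 ± 0.07 (adjusted p = 6.47e-07). In SYN SC the levels were 55.6, 59.8, 63.2 and 46.6 CPM at 3w and 36.7, 34.4, 26.6 and 33 CPM at 5m, a log2 change of -0.74 ± 0.18 (adjusted p = 0.0209). That call did not hold when any one of mice 188, 189, 193 or 194 was left out, with adjusted p from 0.0504 to 0.071. In SYN input, with 76 to 114 reads per 5m library, the groups overlapped and the change of -0.57 ± 0.20 missed the threshold (adjusted p = 0.151).

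Sox11, the other SoxC gene, was not called over the same interval. Its log2 changes were -0.23 ± 0.09 in TH input, -0.20 ± 0.14 in TH SC, -0.02 ± 0.12 in SYN input and -0.05 ± 0.14 in SYN SC, with adjusted p between 0.103 and 0.952. The 3w and 5m libraries overlapped in all 4 fractions. The difference between the changes of these genes was not itself tested.

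Dcx was the lowest of the 10 and still fell in each fraction. In SYN SC its levels were 11.3, 11.2, 9.52 and 9.46 CPM at 3w, from 56 to 69 reads per library, and 3.6, 5.08, 4.64 and 4.95 CPM at 5m, from 30 to 72 reads. In TH SC they were 50.3, 43.8, 43.8 and 36.6 and 27.4, 19.7, 28.8 and 21.2 CPM. The ages did not overlap in either pellet. Log2 changes were -1.13 ± 0.20 in SYN SC (2.18-fold lower, adjusted p = 0.00469) and -0.82 ± 0.13 in TH SC (1.76-fold lower, adjusted p = 0.00062). TH input changed by -0.49 ± 0.10 (adjusted p = 0.00457). In SYN input, the shallowest fraction, the change of -0.93 ± 0.24 stood just past the threshold (adjusted p = 0.0449) and was lost on leaving out any single 3w or 5m mouse except 187, with adjusted p from 0.0694 to 0.126.

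Dpysl3 (chr18:43320984-43438286, minus) fell in each fraction as well. SYN SC levels were 64.3, 69.5, 64.9 and 67.3 CPM at 3w and 28.5, 34.1, 32.1 and 34.7 CPM at 5m. TH SC levels were 91.8, 100, 84 and 91.9 and 55.5, 58.9, 59 and 56.3 CPM. The ages were apart in both. The log2 change was -0.99 ± 0.13 in SYN SC (adjusted p = 0.000359) and -0.65 ± 0.08 in TH SC (adjusted p = 3.58e-05), with -0.91 ± 0.13 in SYN input (adjusted p = 0.000397) and -0.70 ± 0.07 in TH input (adjusted p = 4.16e-06). No mouse left out ended any of these 4 calls. The other collapsin response mediator, Dpysl5, changed by -0.44 ± 0.07 in TH input (adjusted p = 0.000286). Elsewhere it reached -0.46 ± 0.14 in SYN SC (adjusted p = 0.0564), -0.50 ± 0.19 in SYN input and -0.13 ± 0.09 in TH SC, none of them called.

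The tubulin and stathmin genes split. Tubb2b levels in TH input were 136, 143, 131 and 137 CPM at 3w and 99.2, 106, 108 and 107 CPM at 5m, a log2 change of -0.42 ± 0.05 (adjusted p = 6.04e-05). In SYN input the change was -0.41 ± 0.10 (adjusted p = 0.0292), and that call was lost without any one 3w or 5m mouse other than 189, at adjusted p from 0.0524 to 0.0936. In the pellets Tubb2b gave -0.06 ± 0.07 in TH and -0.17 ± 0.13 in SYN, and its 3w and 5m libraries overlapped there. Stmn2 levels in TH SC were 241, 247, 243 and 240 CPM at 3w and 203, 201, 188 and 185 CPM at 5m, and in SYN SC they were 144, 166, 146 and 171 and 81.3, 120, 112 and 103 CPM. The log2 changes of -0.30 ± 0.06 (adjusted p = 0.00397) and -0.55 ± 0.12 (adjusted p = 0.0152) were called, as was -0.31 ± 0.06 in TH input (adjusted p = 0.00241). With GC content and length trends taken out, the TH SC change was -0.14 with adjusted p = 0.149. SYN input gave -0.32 ± 0.10 (adjusted p = 0.104).

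Stmn1 and Gap43 gave no call. Stmn1 in TH input measured 296, 343, 326 and 324 CPM at 3w and 322, 332, 333 and 317 CPM at 5m, a log2 difference of -0.03 with a 95% interval from -0.16 to 0.10. Gap43 measured 120, 106, 115 and 111 and 108, 102, 110 and 109 CPM, a difference of -0.12 with an interval from -0.25 to 0.02. The -0.31 of Stmn2 in that fraction had an interval from -0.44 to -0.19, which overlaps that of Gap43 and lies below that of Stmn1. The differences between the changes of these genes were not themselves tested. In SYN SC the intervals were wider, from -0.66 to 0.03 for Stmn1, which holds the -0.55 of Stmn2, and from -0.45 to 0.04 for Gap43.

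The second comparison asks about the step from adult to old, 18m against 5m. In the SYN fractions none of the 10 genes was called. In SYN SC this stood against 0.014% of all genes called in either direction; 1 of the 10 had an unadjusted p under 0.05 (against 17.4% of all genes), and DESeq2 called 0 (2.3%). In SYN input it stood against 0.139%, with 2 of 10 at an unadjusted p under 0.05 (9.36%), while DESeq2 called 1, Sox11 (0.416%). In TH input 2 of 10 fell (against 7.35% of all genes) and 1 rose (8.18%), and in TH SC 2 of 10 fell (1.79%). The median log2 change of the 10 lay between -0.14 and -0.04 over the 4 fractions. Marcksl1 had the largest estimate of the 10 in SYN SC, -0.57 ± 0.21 (adjusted p = 0.219), with overlapping libraries. In SYN input Marcksl1 changed by -0.51 ± 0.15 (adjusted p = 0.281). Its libraries there did not overlap, at 26.8 to 33.4 CPM at 5m and 16.5 to 24.5 CPM at 18m. In TH its changes were -0.04 ± 0.09 in the input and -0.23 ± 0.12 in SC, neither called.

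Sox11 and Dpysl3 were the members that fell in both TH fractions. Sox11 in TH input measured 32.5, 34.4, 33.8 and 39.6 CPM at 5m and 24.7, 25.9, 23.4 and 28.4 CPM at 18m, and in TH SC 30.7, 37.2, 40.5 and 40.1 and 21.8, 30.3, 20.2 and 21.5 CPM. The ages were apart in both fractions, with mouse 196 nearest to the 5m range in TH SC. Log2 changes were -0.40 ± 0.09 (1.32-fold lower, adjusted p = 0.00942) and -0.66 ± 0.14 (1.58-fold lower, adjusted p = 0.0185). SYN input gave a like value, -0.56 ± 0.12, without passing the test (adjusted p = 0.111), although its libraries of 41.6, 46.7, 34.5 and 36.5 CPM at 5m and 28.3, 25.9, 27.1 and 29.2 CPM at 18m did not overlap. SYN SC gave -0.23 ± 0.14 (adjusted p = 0.406). In TH, Sox4 was called from 3w to 5m and Sox11 from 5m to 18m. Below the threshold, both genes had negative estimates at the other step as well. From 5m to 18m Sox4 changed by -0.34 ± 0.12 in TH SC (adjusted p = 0.146). Its TH input gave -0.08 ± 0.07 (adjusted p = 0.487). From 3w to 5m Sox11 changed by -0.23 ± 0.09 in TH input (adjusted p = 0.103). Its TH SC gave -0.195 ± 0.14 (adjusted p = 0.342). The difference in timing was not itself tested, and the calls alone do not show one.

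Dpysl3 in TH SC measured 55.5, 58.9, 59 and 56.3 CPM at 5m and 45.2, 43.4, 43.3 and 47.2 CPM at 18m, a log2 change of -0.35 ± 0.07 (adjusted p = 0.0214), and TH input changed by -0.23 ± 0.07 (adjusted p = 0.0383). Tubb2b in TH input rose from 99.2, 106, 108 and 107 to 114, 120, 112 and 122 CPM, by 0.20 ± 0.05 (adjusted p = 0.0185), and remained below its 3w range. These calls were near the threshold. In TH SC the Sox11 call was lost without any one of mice 193, 195, 197 and 198 (adjusted p from 0.062 to 0.0795) and the Dpysl3 call without any one of mice 192, 193, 195, 196, 197 and 198 (0.0543 to 0.0907). In TH input the Dpysl3 call was lost without 191, 192, 194, 195, 196 or 197 (0.0597 to 0.0963), with no filter on low counts (0.052) and in a fit of the compared ages alone (0.0531). That of Tubb2b was lost without 191, 196 or 198 (0.05 to 0.0624). When GC content and length trends were removed, Tubb2b (0.143) and Sox11 (0.0528) missed the threshold. The summed level of 8 nuclear RNAs in TH SC was 9090 to 13200 CPM at 5m and 6550 to 7690 CPM at 18m. In SYN SC it was 893 to 1850 and 1910 to 3080 CPM. The sum of 12 mature neuron markers in TH SC was 11200 to 11800 and 11400 to 12600 CPM. The part of such shifts in the members' changes was not tested.

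**Figure D2:**
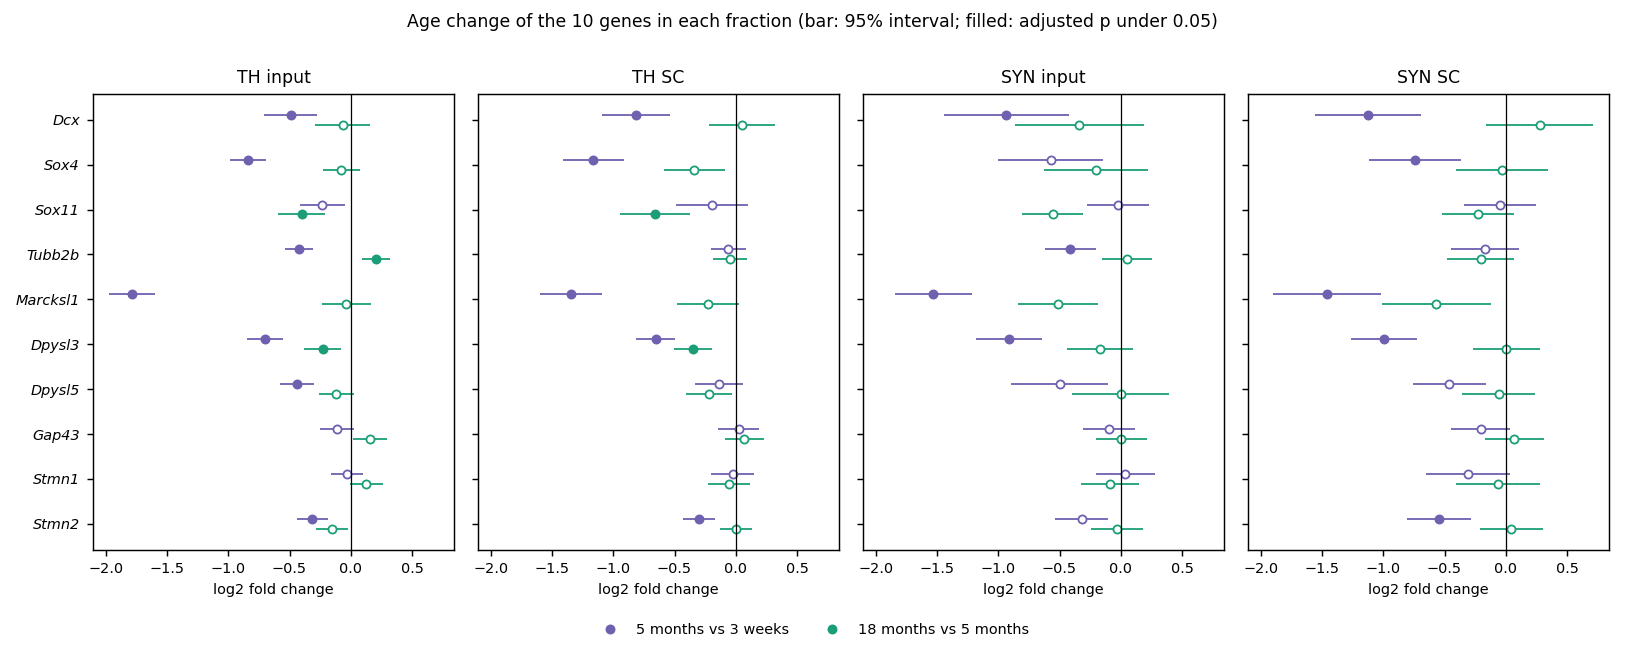
Log2 fold change of each gene from 3w to 5m (violet) and from 5m to 18m (green) in the 4 fractions, with 95% intervals; filled points passed the test. Marcksl1, Dcx and Dpysl3 have filled violet points in all 4 panels, and filled green points occur only in the TH panels.

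Other genes of the same families and processes were read from lists. Of 16 relatives of the 10 genes (other beta-tubulins, stathmins, collapsin response mediators, doublecortin-like kinases, Sox12, Marcks and Basp1), 15 were tested, Tubb6 being too low. From 3w to 5m, 11 of 15 fell in TH input with a list median of -0.25, and 3 in TH SC, 4 in SYN input and 3 in SYN SC. Marcks, the actin and lipid binding relative of Marcksl1, changed by -0.65 ± 0.06 in TH input (adjusted p = 9.82e-07) and by -0.34 ± 0.15 in SYN SC (adjusted p = 0.172), beside -1.79 and -1.46 for Marcksl1. Tubb2a, the beta-tubulin most like Tubb2b, fell in all 4 fractions, by -0.50 ± 0.05 in TH input (adjusted p = 1.4e-05) and -0.60 ± 0.13 in SYN SC (adjusted p = 0.0113). Reads of these near-identical tubulins could be split or misplaced by the counting, so each value is uncertain. Dpysl4 fell by -0.72 ± 0.15 in SYN SC (adjusted p = 0.0105), Tubb3 by -0.40 ± 0.10 there (adjusted p = 0.0249) and Tubb4a by -0.44 ± 0.06 in TH input (adjusted p = 0.000162). From 5m to 18m, 6 of the 15 relatives rose in TH input and none in the other fractions.

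Among 30 further genes of migration and outgrowth, 13 of 30 fell and 1 rose in TH input from 3w to 5m, with a median of -0.22. In TH SC 6 of 29 fell and 3 rose, in SYN input 3 of 28 fell, and in SYN SC 6 of 29 fell and 2 rose. Igfbpl1, which marks neuroblasts, changed by -2.03 ± 0.27 in TH input (adjusted p = 0.000104), from 2.87 ± 0.32 to 0.73 ± 0.20 CPM (SD, n = 4). Draxin, a guidance cue, changed by -1.84 ± 0.32 in TH input (adjusted p = 0.00109) and -1.55 ± 0.32 in SYN SC (adjusted p = 0.0102). Its mean levels at 3w and 5m were low, 1.71 and 0.477 CPM in TH input and 2.14 and 0.67 CPM in SYN SC. Nrep, a neuronal regeneration-related protein, changed by -0.99 ± 0.08 in TH input (adjusted p = 7.11e-07) and -1.30 ± 0.18 in SYN SC (adjusted p = 0.000652). Cd24a, a surface protein of young neurons, changed by -1.72 ± 0.33 in SYN SC (adjusted p = 0.00708), from a mean of 4.69 to 1.36 CPM. From 5m to 18m, 2 of the 30 fell and 1 rose in TH input and none was called in the other fractions.

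Most markers of the oligodendrocyte lineage, from precursors to mature cells, fell over the same interval. Oligodendrocyte precursor markers fell in 8 of 8 genes in TH input and 5 of 8 in SYN SC, led by Gpr17 at -1.69 and -1.54, with Neu4 (-0.86) and Sox10 (-0.76) next in TH input and Olig2 (-0.81) and Vcan (-0.68) in SYN SC. Their summed level was 504 to 608 CPM at 3w and 354 to 375 CPM at 5m in TH input, and 877 to 1120 and 653 to 739 CPM in SYN SC. Newly formed oligodendrocyte markers fell in 5 of 7 genes in TH input and 6 of 7 in SYN SC, with Enpp6 at -2.19 and -2.37, and Kif19a (-1.81) and Fyn (-0.54) next in TH input and Bcas1 (-1.73) and Bmp4 (-1.55) in SYN SC. Their summed level was 292 to 345 CPM at 3w and 227 to 241 CPM at 5m in TH input, and in SYN SC it was 618 CPM or more at 3w and 231 to 299 CPM at 5m. Mature oligodendrocyte markers fell in 7 of 8 genes in both, among them Mog (-1.62 and -1.73) and Cldn11 (-1.58 and -1.57), and their sum went from 5900 to 7570 CPM at 3w to 2490 to 2790 CPM at 5m in TH input, and from 7120 to 8760 to 2550 to 2870 CPM in SYN SC. No marker of these 3 lists was at 0 in any TH library. The part of oligodendrocyte lineage cells in the fall of Sox4, Marcksl1, Dpysl3 and Dcx was not tested.

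Progenitor and dividing cell markers fell in 5 of 10 genes tested in TH input and 4 of 7 in SYN SC, with Top2a at -2.04 and -1.87, Neurog2 at -1.91 and Mki67 at -1.85 in TH input, and Cenpf at -2.38 and Fabp7 at -1.66 in SYN SC. These genes were sparse: the sum of the list was 62.6 to 73 CPM at 3w and 41.1 to 51.2 CPM at 5m in TH input and 101 to 155 and 43.6 to 67 CPM in SYN SC, and Ccnb1, Cdk1 and Eomes were at 0 in 5, 9 and 5 of the 12 SYN inputs. The interneuron neuroblast list had no call in TH input or SYN SC, at a sum of 39.9 to 47.4 CPM at 3w and 39.5 to 41.8 CPM at 5m in TH input. Mature neuron markers gave 1 call up and 2 down of 12 in TH input, and 1 up and 1 down in SYN SC. Snap25 (0.31) rose and Slc17a7 (-0.41) and Thy1 (-0.21) fell in TH input, and Nefh (0.52) rose and Grin2a (-0.44) fell in SYN SC. Their sum in TH input was 7900 to 8400 CPM at 3w and 7280 to 8480 CPM at 5m, overlapping between the ages.

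The remaining lists went in different directions, by list and by fraction. Astrocyte markers fell in 4 of 8 genes in TH input, led by Aqp4 (-0.37), Slc1a2 (-0.32) and Sox9 (-0.25), and rose in 1 of 8 in SYN SC (Aldoc, 0.43), with sums of 5680 to 6320 and 4740 to 5350 CPM at 3w and 5m in TH input. Microglia markers fell in 1 of 8 genes in TH input (P2ry12, -0.46) and rose in 5 of 8 in SYN SC, where C1qa changed by 1.03, C1qb by 1.02 and Csf1r by 0.78, and their sum went from 471 to 555 CPM at 3w to 773 to 950 CPM at 5m in SYN SC. Endothelial markers gave 1 call of 8 in TH input, Flt1 at 0.48, and erythrocyte markers, led by Hba-a2 (-1.09), fell in 5 of 5 there, with sums of 471 to 624 CPM at 3w and 178 to 385 CPM at 5m. Nuclear RNAs fell in 1 of 8 in TH input (Miat, -0.28), in 5 of 8 in TH SC and in none in SYN SC. The part of these cells and of nuclear RNA in the members' changes was not tested. The share of all genes called higher from 3w to 5m is not given here, so rises counted in the lists stand without that background.

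**Figure D3:**
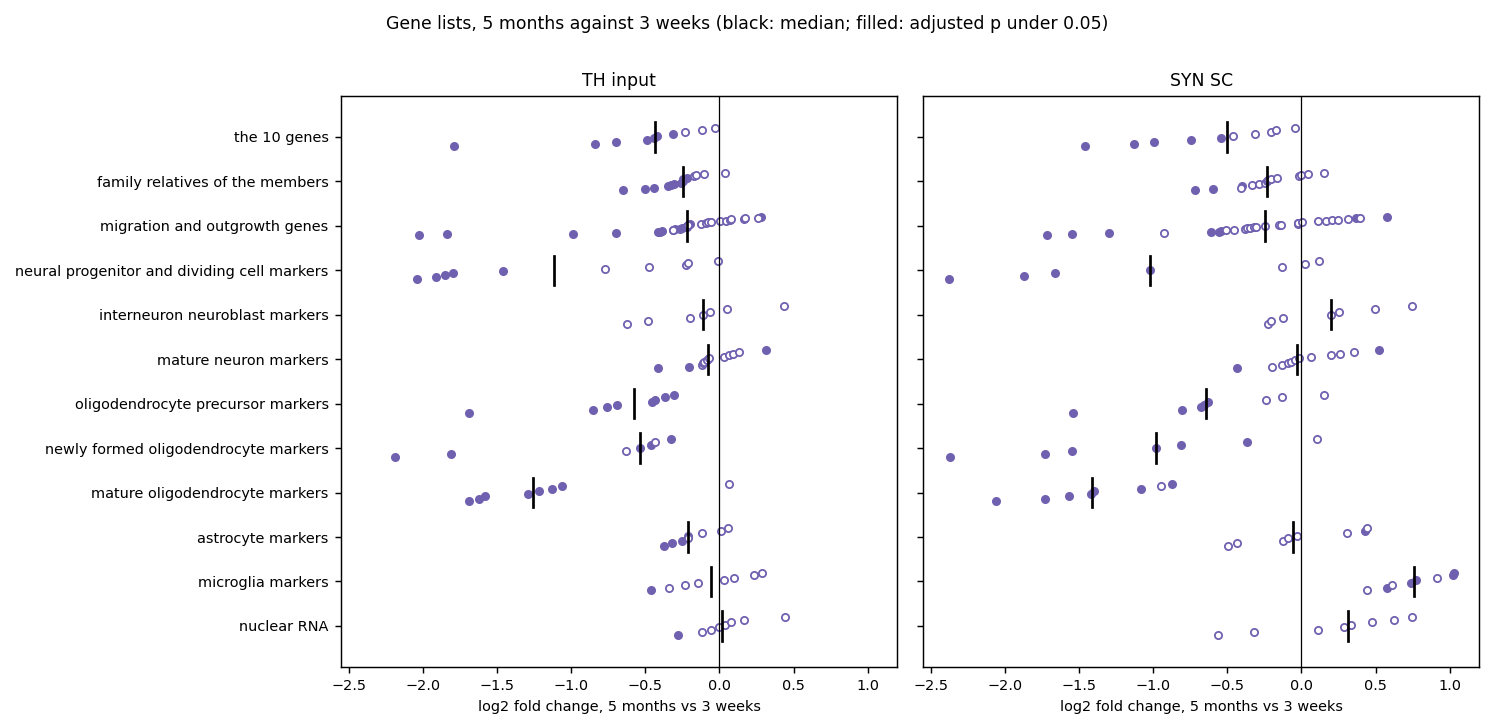
Log2 fold change from 3w to 5m of single genes in 12 lists, for TH input (left) and SYN SC (right); filled points passed the test and black bars are list medians. The 10 genes have medians of -0.43 and -0.50, and the 3 oligodendrocyte lineage lists lie lower than the mature neuron list, whose median is -0.08 in TH input.

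The third comparison asks which of the genes' RNAs are found in SYN relative to TH. Here the scaling decides part of the answer. TMM sets the median of all genes near 0, at -0.04 to -0.09 for the pellets and -0.12 to -0.18 for the inputs, whereas scaling by library total puts it at -0.59 to -0.68 and -0.70 to -0.83. A gene near the middle of the distribution is therefore higher in SYN under one scaling and lower under the other, and only differences beyond that shift keep their direction. Dcx, lower in SYN, and Tubb2b, higher in SYN, kept direction and call under both scalings in pellets and inputs at every age.

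In the pellets, 1 of 10 genes was higher in SYN at 3w (against 31.1% of all genes) and 4 were lower (32.4%). At 5m 2 were higher (32.1%) and 6 lower (35.8%), and at 18m 3 were higher (29.9%) and 6 lower (32.2%). In the inputs 5 of 10 were higher (31.7%) and 1 lower (39.3%) at 3w, 5 higher (32.6%) and 2 lower (40.1%) at 5m, and 5 higher (32.9%) and 1 lower (39.4%) at 18m. Most genes differed between SYN and TH, and the members divided between both sides.

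Dcx was the member most clearly left behind in TH. At 5m its SYN SC levels were 3.6, 5.08, 4.64 and 4.95 CPM and its TH SC levels 27.4, 19.7, 28.8 and 21.2 CPM, and the inputs gave 8.44, 6.89, 7.27 and 6.51 CPM in SYN and 33.3, 36.4, 40.5 and 37.6 CPM in TH. No SYN library of any age reached the lowest TH library of its kind and age. Log2 differences between pellets were -1.53 ± 0.17 at 3w (adjusted p = 1.68e-08), -1.82 ± 0.17 at 5m (1.26e-09) and -1.62 ± 0.17 at 18m (1.21e-08). Between inputs they were -1.30 ± 0.16, -1.69 ± 0.18 and -1.96 ± 0.17, or 2.46-fold to 3.89-fold lower in SYN (adjusted p from 2.45e-11 to 3.45e-08). By library total the pellet differences were -2.08, -2.40 and -2.15.

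Tubb2b was the reverse. At 5m its SYN SC levels were 407, 399, 329 and 400 CPM against 295, 297, 280 and 306 CPM in TH SC, and the inputs gave 176, 165, 180 and 182 CPM in SYN against 99.2, 106, 108 and 107 CPM in TH. SYN libraries lay above TH libraries at every age in both kinds of RNA. Pellet differences were 1.06 ± 0.10 at 3w (adjusted p = 1.7e-09), 0.97 ± 0.10 at 5m (6.98e-09) and 0.80 ± 0.10 at 18m (2.57e-07). Input differences were 1.35 ± 0.09, 1.39 ± 0.09 and 1.24 ± 0.08 (adjusted p from 3.1e-14 to 2.45e-13). By library total they were 0.51, 0.38 and 0.27 in the pellets and 0.78, 0.74 and 0.67 in the inputs, all called. Tubb2a, by contrast, gave pellet differences of 0.22, 0.01 and -0.07 under TMM, none called.

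Sox4 and Sox11 encode transcription factors, and their RNAs were higher in SYN inputs under TMM. Sox4 differed by 0.16 ± 0.15, 0.60 ± 0.15 and 0.89 ± 0.16 between pellets at 3w, 5m and 18m, the last pair being called (adjusted p = 0.00149 and 2.65e-05), and by 0.80 ± 0.14, 1.08 ± 0.15 and 0.95 ± 0.14 between inputs, all called. The CPM of 5m pellets were nearly equal, 36.7, 34.4, 26.6 and 33 in SYN and 24.4, 37.5, 37.4 and 31.1 in TH, and library totals gave -0.39, 0.01 and 0.37 for the pellets and 0.22, 0.43 and 0.38 for the inputs. The direction at 3w thus turned with the scaling, and the calls at 18m in pellets and at 5m and 18m in inputs stood under both. Sox11 differed by 0.60 ± 0.10, 0.83 ± 0.10 and 0.68 ± 0.10 between inputs, called at each age by TMM and at none by library total (0.02, 0.18 and 0.11). Its pellet differences were 0.10, 0.26 and 0.68, of which the last was called by TMM (adjusted p = 0.000212) and not by library total (0.15).

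Dpysl5, Gap43, Stmn1 and Stmn2 were lower in SYN pellets at 5m and 18m. Gap43 at 5m measured 71.1, 70.4, 59.8 and 68.7 CPM in SYN SC and 146, 131, 148 and 142 CPM in TH SC, and Stmn1 324, 299, 227 and 265 and 563, 699, 664 and 600 CPM. No libraries overlapped for either gene. At 5m and 18m the log2 differences were -0.49 and -0.50 for Gap43, -0.59 and -0.61 for Stmn1, -0.67 and -0.51 for Dpysl5 and -0.32 and -0.28 for Stmn2 (SE 0.09 to 0.13), and larger by library total. Removal of GC and length trends turned Stmn2 to 0.474 at 3w and 0.175 at 5m, and left it at -0.02 at 18m. In the inputs Gap43 (0.26, 0.30 and 0.15 at the 3 ages), Stmn2 (0.13, 0.15 and 0.28) and Dpysl3 (0.36, 0.18 and 0.24) had positive values by TMM and negative ones by library total, as had Marcksl1 at 5m (0.31), so no direction is given for them. Marcksl1 gave pellet differences of -0.03, -0.12 and -0.47 and Dpysl3 of 0.08, -0.24 and 0.10. Of these the Marcksl1 value at 18m was called (adjusted p = 0.0273) and was lost without mouse 195, 196 or 198, and the Dpysl3 value at 5m was called (adjusted p = 0.0336) and was lost without mouse 191, 192 or 193. The Stmn2 pellet call at 18m was lost without mouse 196 or 197 and that at 5m without mouse 191. At 3w the pellet calls of Gap43, Stmn1 and Dpysl5 (adjusted p = 0.0138, 0.0303 and 0.00934) were fragile to leaving out a mouse. In that order they were lost without 187 or 189, without 187, 188 or 190, and without 188. The estimates stayed negative with any one 3w mouse left out.

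**Figure D4:**
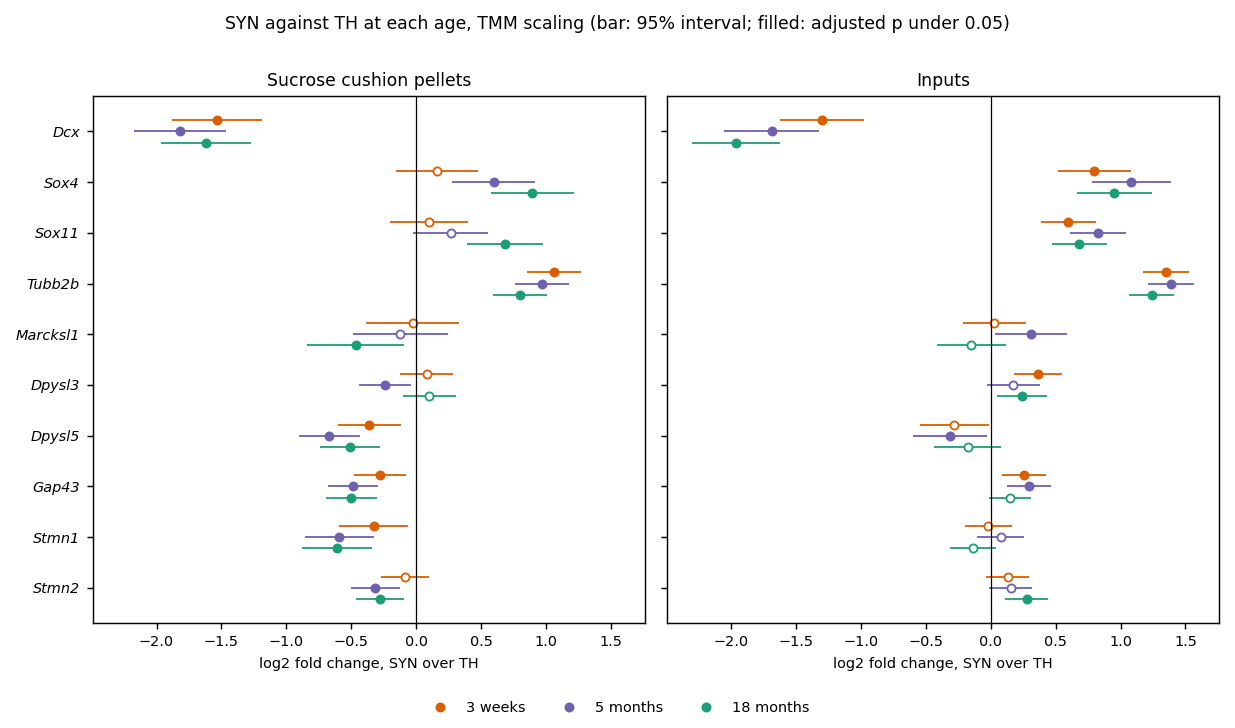
Log2 fold change of SYN over TH under TMM scaling, for pellets (left) and inputs (right) at the 3 ages, with 95% intervals; filled points passed the test. Dcx lies at -1.30 or below in both panels and Tubb2b at 0.80 or above.

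The change of these differences with age was tested as an interaction, which asks whether SYN and TH moved apart. None of the 10 was called in any of the 4 interactions. For pellets the background was 0.0301% of all genes from 3w to 5m and 0% from 5m to 18m, and for inputs 0.0224% and 2.42%. At an unadjusted p under 0.05 there were 1, 2, 0 and 1 members in these interactions, against 7.96%, 17.2%, 8.05% and 17.7% of all genes. DESeq2 called 0 members in each, against 0.331%, 1.53%, 0.14% and 5.91%. The widest estimates were 0.44 for Sox4 (95% interval -0.01 to 0.89) between pellets from 3w to 5m and -0.46 for Marcksl1 (-0.84 to -0.07) between inputs from 5m to 18m. The falls in SYN and TH from 3w to 5m therefore stand side by side, with no difference shown between compartments.

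Markers of nuclei and other cells differed between the compartments too. At 5m, 7 of 8 nuclear RNAs were lower in SYN SC than in TH SC with a median of -2.70, and their sum was 9090 to 13200 CPM in TH SC and 893 to 1850 CPM in SYN SC. All 8 endothelial and all 5 erythrocyte markers were lower in SYN SC, with medians of -3.05 and -3.07. All 8 astrocyte markers were higher in SYN SC with a median of 1.46 and sums of 13300 to 15100 CPM against 6800 to 7580 CPM, and all 8 microglia markers with a median of 1.54. Of the mature neuron markers 5 of 12 were higher and 5 lower. The part of these cells in the position of Dcx or Tubb2b was not tested.

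The fourth comparison sets the pellet against the input of the same compartment, which the study read as translational efficiency within a single compartment. For SYN the study also gave that name to SYN pellets over TH pellets, the pellet part of the third comparison. In TH the members' RNAs were mostly richer in the pellet. At 3w 7 of 10 were higher in SC (against 26.1% of all genes) and none lower (26.6%). At 5m 8 were higher (29.9%) and 1 lower (32.2%), and at 18m 8 were higher (31.3%) and 1 lower (32.7%). The median log2 difference of the 10 was 0.47, 0.58 and 0.45, beside -0.05, -0.05 and -0.01 over all genes. Other lists shifted between TH input and TH SC too. At 5m mean sums rose from 3850 to 6070 CPM for the family relatives and from 5180 to 7310 CPM for astrocyte markers. Those of mature neuron markers rose from 8080 to 11500 CPM. Mature oligodendrocyte markers went from 2690 to 2090 CPM and nuclear RNAs from 24200 to 11100 CPM. The part of such shifts in the members' differences was not tested.

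Tubb2b and Stmn1 had the largest differences in TH. Tubb2b pellets at 5m, 295, 297, 280 and 306 CPM, stood against inputs of 99.2, 106, 108 and 107 CPM. Stmn1 pellets, 563, 699, 664 and 600 CPM, stood against 322, 332, 333 and 317 CPM. Neither gene overlapped between pellet and input at any age. Log2 differences for Tubb2b were 1.24 ± 0.06 at 3w, 1.58 ± 0.06 at 5m and 1.33 ± 0.06 at 18m, or 2.36-fold to 2.99-fold, and for Stmn1 1.06, 1.05 and 0.87 (SE 0.08). Sox4 differed by 0.95 ± 0.10, 0.60 ± 0.10 and 0.34 ± 0.10, Stmn2 by 0.56, 0.55 and 0.71 (SE 0.06), Dpysl3 by 0.59, 0.61 and 0.50 (SE 0.07) and Gap43 by 0.38, 0.50 and 0.41 (SE 0.07), each called at each age. Dpysl5 gave 0.13, 0.41 and 0.31 (SE 0.08), called at 5m and 18m, and Marcksl1 0.35, 0.77 and 0.57 (SE 0.11), called at each age, the first of which was lost without mouse 187 or 190.

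Dcx went the other way. Its TH pellets at 5m were 27.4, 19.7, 28.8 and 21.2 CPM and its inputs 33.3, 36.4, 40.5 and 37.6 CPM, without overlap. The differences were -0.15 ± 0.12 at 3w (adjusted p = 0.315), -0.50 ± 0.12 at 5m (adjusted p = 0.00118) and -0.38 ± 0.12 at 18m (adjusted p = 0.00756). With GC content and length trends taken out they were -0.06, -0.17 and -0.20, and none was called. Dcx has the longest exons of the 10 and the lowest GC content, 40.6% in its longest transcript. Sox11 gave 0.16, 0.17 and -0.09, and passed at no age.

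In SYN the pellets and inputs differed less. At 3w 2 of 10 were higher in SC (against 9.04%) and 1 lower (9.5%), at 5m 1 was higher (9.66%) and 3 lower (10.3%), and at 18m 1 was higher (5.88%) and none lower (6.7%). Tubb2b was the member called at all 3 ages, with 0.87 ± 0.11, 1.11 ± 0.11 and 0.85 ± 0.11 (adjusted p = 1.43e-05, 3.12e-07 and 1.7e-05). At 3w its SYN pellets, 497, 441, 404 and 444 CPM, all exceeded its SYN inputs, 261, 218, 214 and 246 CPM. Stmn1 was called at 3w, 0.68 ± 0.14 (adjusted p = 0.00207). Sox11 was lower in SC at 3w and 5m by -0.41 ± 0.13 and -0.44 ± 0.12 (adjusted p = 0.0231 and 0.0131), and Dcx by -0.68 ± 0.23 and Gap43 by -0.34 ± 0.10 at 5m (adjusted p = 0.0397 and 0.0194). These 4 lower calls were fragile: the Sox11 call at 3w was lost without any one of the 3w mice, the Dcx call without any one of the 5m mice, the Sox11 call at 5m without mouse 191 or 192, and the Gap43 call without mouse 192 or 193, and all 4 were lost with no filter on low counts.

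**Figure D5:**
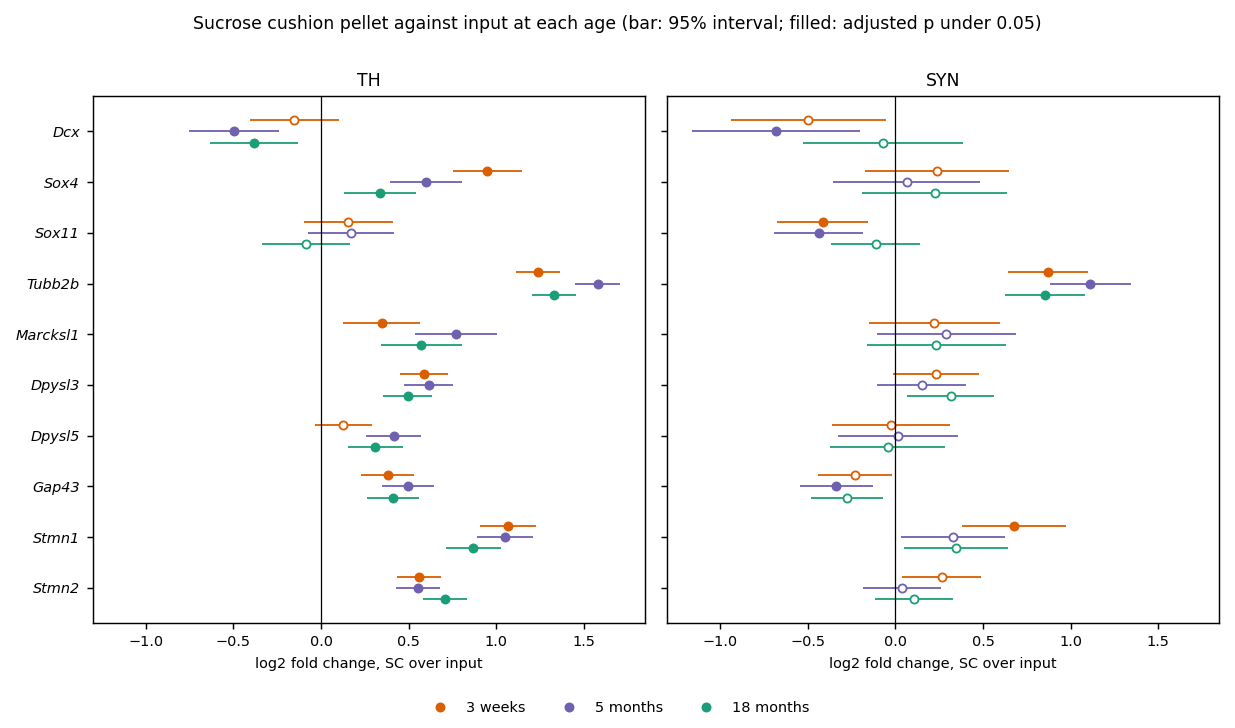
Log2 fold change of the sucrose cushion pellet over its input in TH (left) and SYN (right) at the 3 ages, with 95% intervals; filled points passed the test. Tubb2b is the gene with filled points to the right of 0 in both panels at every age, between 0.85 and 1.58, and Dcx lies to the left of 0 throughout.

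Whether the pellet-to-input difference changed with age was tested for each member as well. In TH from 3w to 5m, 1 of 10 changed, against 2.33% of all genes: the difference of Tubb2b grew by 0.34 ± 0.09 (95% interval 0.16 to 0.52, adjusted p = 0.0353), its input falling by 0.42 while its pellet changed by -0.06. The call was lost without any one of mice 187, 188, 191 and 194, and after removal of GC and length trends (0.30). From 5m to 18m none of the 10 changed in TH (against 1.78%), where 1 had an unadjusted p under 0.05 (17.0%) and DESeq2 called 1, Tubb2b at -0.27 (3.9%). In SYN none of the 10 and 0% of all genes were called at either step. At an unadjusted p under 0.05 there were 0 members at each step and 473 and 393 genes of 14301 (3.31% and 2.75%), and DESeq2 called 0 genes. The intervals in SYN were wide. That of Tubb2b from 3w to 5m ran from -0.08 to 0.57, which holds the 0.34 found in TH, and that of Dcx from 5m to 18m from -0.05 to 1.27.

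The genes whose pattern over all 48 libraries was most like the mean of the 10 were found by Pearson's r of log2 CPM among 11989 genes. Among them were Stx1a (r = 0.908), Atxn7l3b (0.899), Hsbp1 (0.881), Marcks (0.869), Vps36 (0.858), Narf (0.852) and Capn5 (0.849). Against the same mean, r was 0.928 for Dpysl3, 0.903 for Stmn2 and 0.847 for Marcksl1, but 0.254 for Dcx and 0.4 for Sox11, so the mean follows the former genes more closely. Each member is part of that mean, which raises its own r, so the members' values cannot be set beside those of the other genes. Most like Dcx were Ptprb (0.93), Arpp21 (0.926), Sestd1 (0.923), Psme4 (0.923) and Iffo1 (0.918). All these values include differences between fractions. Within single fractions of 12 libraries, r of Dcx with Dpysl3 was 0.805 in TH input, 0.808 in TH SC, 0.885 in SYN input and 0.949 in SYN SC. With Stmn1, r of Dcx was -0.383, 0.0261, 0.0257 and 0.469 in the same order. The points share mice, fractions and depth, and the values describe these libraries.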

How the data were processed

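RNA of inputs and sucrose cushion pellets was sequenced after rRNA depletion from directional libraries carrying UMIs, whose use is not stated. The authors ran bcl2fastq 2.20.0.422, aligned reads with TopHat2 2.1 to GRCm38 and counted them per gene; counting without strand is stated only for other libraries of the study. The deposited values are raw counts of 48526 genes in 48 libraries, 48144 of them matched to GENCODE. The labels do not tie libraries to sequencing runs.

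The test was edgeR 4.0.16 in R 4.3.3 (glmQLFit, glmQLFTest, TMM, filterByExpr, Benjamini-Hochberg threshold 0.05). Each fraction was fitted over 12 libraries by age, and compartments or pellet and input over 24. Members and lists were chosen with earlier results of these data known, so list counts are descriptions. All 10 members were reported. From each other list, called genes with the 3 largest changes from 3w to 5m in TH input and SYN SC were named, and as like genes the 8 (mean of members) or 5 (Dcx) with the highest r, at least 50 mean counts in their highest group and no Gm, Rik or pseudogene name. Some genes that meet these rules are not reported here.

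The 4 libraries of a mouse share an animal, which pairs them. Their deviations from group means correlated with medians of -0.0233 to 0.135 over the 6 pairs of fractions. Alternatives were the mouse as a block, DESeq2 1.42.0, library size, no filter, a floor of 10 counts per library, the compared groups alone, GC and length trends removed (loess, span 0.5), and each mouse left out. The code was tested on simulated data.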

Additional observations from a re-analysis of the deposited data

Results flagged for a closer look

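In 120 groups of 4 libraries, 10 genes in 12 groups, a single library stood apart from the other 3 in 7 cases by Dixon's criterion, where chance gives about 6. The gap of that library, as a share of the group's range, and its level are as follows. For Sox11 in TH SC at 18m the share was 0.839, with mouse 196 at 30.3 CPM and the others at 20.2 to 21.8 CPM. For Tubb2b in SYN SC it was 0.897 at 5m (mouse 193 at 329 CPM, others 399 to 407 CPM) and 0.901 at 18m (mouse 198 at 445 CPM, others 302 to 317 CPM). For Marcksl1 in TH SC it was 0.89 at 3w (mouse 188 at 117 CPM, others 168 to 174 CPM) and 0.856 at 5m (mouse 192 at 49.7 CPM, others 63.4 to 65.7 CPM). In SYN SC at 18m it was 0.898 for Dpysl3 (mouse 195 at 42.6 CPM, others 29.7 to 31 CPM) and 0.864 for Stmn2 (mouse 198 at 125 CPM, others 104 to 107 CPM). Among the 80 interactions of members with age, 1 passed the test in edgeR's quasi-likelihood fit: the pellet-to-input difference of Tubb2b in TH was larger at 5m than at 3w by 0.34 on the log2 scale.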

How the results depend on the processing

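Of 280 log2 differences of the members, direction and side of the threshold held for 265 under DESeq2, 231 under library size, 259 with no filter, 253 with at least 10 counts in every library, 226 with GC and length trends removed and 272 in fits of the compared groups alone. In the same order, 6, 15, 8, 10, 26 and 3 differences that were called in neither fit changed sign. With the mouse as a replicate block 199 of 200 held: members called between the inputs of SYN and TH at 3w went from 6 to 7, by Dpysl5, and no other call changed. The sign changes of differences called in either fit were all of SYN against TH. Under library size the pellets gave Sox4 -0.39, Sox11 -0.452 and Dpysl3 -0.468 at 3w, Sox11 -0.323 at 5m and Dpysl3 -0.429 at 18m. The inputs gave Marcksl1 -0.544, Dpysl3 -0.212, Gap43 -0.317 and Stmn2 -0.44 at 3w, Marcksl1 -0.347, Dpysl3 -0.479, Gap43 -0.356, Stmn1 -0.574 and Stmn2 -0.499 at 5m, and Dpysl3 -0.334, Gap43 -0.419 and Stmn2 -0.293 at 18m. With at least 10 counts in every library the inputs gave Marcksl1 -0.257 and Gap43 -0.0295 at 3w, Marcksl1 -0.00338, Gap43 -0.0129 and Stmn1 -0.234 at 5m, and Dpysl3 -0.0545 and Stmn2 -0.0168 at 18m. With GC and length trends removed, Stmn2 pellets gave 0.474 at 3w and 0.175 at 5m, and Marcksl1 inputs -0.198 and -0.0921. The library-size sign changes follow from its shift of the median of all genes, and the cause of the others was not tested.

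Counts of members called that moved by more than 1.5 times are as follows. DESeq2 called 1 in SYN input from 5m to 18m, 2 between SYN pellet and input at 18m and 1 in the change of TH pellet against input from 5m to 18m. Library size called 10 between pellets at 3w. With no filter 2 were called between SYN pellet and input at 5m and 2 in the change of TH pellet against input from 3w to 5m. With at least 10 counts, 2 were called between SYN pellet and input at 18m and 1 in the TH change from 5m to 18m. With GC and length trends removed, 5 and 2 were called between SYN pellet and input at 3w and 18m, and 0 in the TH change from 3w to 5m. Leaving out 1 mouse gave 0 to 3 calls in TH SC and 1 to 4 in TH input from 5m to 18m, 2 to 3 in SYN input from 3w to 5m, 3 to 4 between pellets at 3w, 1 to 3 and 1 to 2 between SYN pellet and input at 5m and 18m, and 0 to 1 in each TH change. From 3w to 5m it gave 7 in TH input, 5 in TH SC and 4 to 5 in SYN SC. Depth limits the SYN inputs most, with Dcx at 14 to 44 reads at 18m. Intervals cover the spread between mice.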
